A study of Homo sapiens with 63 samples.

Results

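The 10 genes described here carry the cell's synthesis of fatty acids and the steps that lengthen and desaturate them: ACLY, ACSS2, ACACA, FASN, ELOVL6, SCD, ELOVL5, FADS1, FADS2 and SREBF1. They were taken by symbol from the 58336 genes of the deposited table, and all 10 passed the filter on low counts that left 19352 tested genes. The cells were HEK293T, a human line of embryonic kidney origin in wide laboratory use, made to express Halo, a protein tag that binds chosen ligands covalently. The 63 libraries fall into 7 arms, each with 3 libraries at 6, 12 and 18 h. The arms are ibufenac or ibuprofen given as the form labelled probe, as the form labelled photocaged or as a bolus, and DMSO, the vehicle. Ibuprofen is a nonsteroidal anti-inflammatory drug, and ibufenac is its close relative without the α-methyl group. Both drugs can form acyl glucuronides, reactive conjugates made in the body.

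Per the design text, Halo-bound precursors of either drug's acyl glucuronide were given at 10 µM for 2 h. Unbound precursor was washed out, and light of 365 nm at 5 mW/cm2 was then given for 3 min. Not stated in the labels are the bolus dose, the arms that were lit, and what sets the probe form apart from the photocaged form. Whether the 3 libraries of a group came from separate cultures is not stated either, so p-values may reflect technical spread alone. All groups, DMSO included, share the Halo-expressing line.

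Cytosolic fatty acid synthesis starts from acetyl-CoA, which ACLY makes from citrate and ACSS2 from acetate. ACACA turns acetyl-CoA into malonyl-CoA, and FASN joins these units into palmitate. ELOVL6 lengthens palmitate, SCD places a double bond in saturated chains, and FADS2, ELOVL5 and FADS1 act in turn on polyunsaturated chains. SREBF1 encodes a transcription factor, held in the endoplasmic reticulum membrane until it is cut, that drives most of these genes; its close relative SREBF2 mainly drives cholesterol synthesis.

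The smallest of the 63 libraries held 12139918 counts, the median one 19605077 and the deepest 38377150. Transcripts that mark the line were present in every library, with VIM at 313 to 530 CPM (counts scaled to the size of the library) and LIN28B at 102 to 177 CPM. PAX2, another marker of the line, did not exceed 0.834 CPM. No marker of hepatocytes, blood, fibroblasts or adipocytes exceeded 5.93 CPM. Earlier results of these data set apart replicate 3 of DMSO at 18 h and replicate 3 of the ibufenac bolus at 18 h, and calls that change without these 2 libraries are given as such. Their median absolute deviation from the group mean over genes was 0.191 and 0.166 (log2). Other libraries lay as far or farther from their groups, with 0.228 for replicate 3 of the ibufenac bolus at 6 h. In bulk RNA, fewer cells of a kind and less RNA per cell cannot be told apart.

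Promoter windows are shown for SCD, ELOVL6 and ACLY, the members called lower than in DMSO over the 3 times with the ibufenac probe. Each window covers 250 bases before to 50 after the start, from RefSeq on GRCh38.p14, printed 5′ to 3′ on the gene's strand. The SCD window is chr10:100346983-100347282 (plus strand), the ELOVL6 window is chr4:110198566-110198865 (minus strand), and the ACLY window is chr17:41918973-41919272 (minus strand). Capitals mark matches, on either strand, to the CCAAT box, spelled as its name, and to the GC box, which was searched as GGGCGG; the motifs share no bases in these windows.
SCD: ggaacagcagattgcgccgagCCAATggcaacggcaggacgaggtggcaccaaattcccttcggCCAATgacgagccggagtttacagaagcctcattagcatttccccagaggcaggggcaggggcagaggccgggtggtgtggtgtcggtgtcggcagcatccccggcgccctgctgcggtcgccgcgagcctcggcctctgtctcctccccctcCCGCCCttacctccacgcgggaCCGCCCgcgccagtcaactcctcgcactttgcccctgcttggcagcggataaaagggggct
ELOVL6: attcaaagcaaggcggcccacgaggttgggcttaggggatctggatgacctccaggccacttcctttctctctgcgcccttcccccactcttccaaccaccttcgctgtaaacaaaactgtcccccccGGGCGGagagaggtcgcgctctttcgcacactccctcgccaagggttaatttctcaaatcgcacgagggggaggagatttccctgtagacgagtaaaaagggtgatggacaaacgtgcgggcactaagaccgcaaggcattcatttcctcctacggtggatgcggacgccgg
ACLY: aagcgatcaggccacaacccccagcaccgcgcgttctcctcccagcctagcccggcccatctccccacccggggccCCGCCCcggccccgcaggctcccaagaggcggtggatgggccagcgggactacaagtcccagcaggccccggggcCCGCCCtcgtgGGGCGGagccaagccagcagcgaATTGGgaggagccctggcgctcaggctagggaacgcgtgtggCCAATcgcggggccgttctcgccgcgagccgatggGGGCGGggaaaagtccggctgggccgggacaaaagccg
The SCD window held CCAAT boxes at -229 and -186 and GC boxes at -33 and -11 from the start. The ELOVL6 window held 1 GC box, at -122. In the ACLY window the CCAAT boxes lay at -65 and -23 and the GC boxes at -174, -99, -88 and 13. The CCAAT box occurs in 34.6% and the GC box in 45% of the 35116 RefSeq windows of that length. A classical sterol regulatory element, TCACNCCAC, occurs in 1.13% of them and in none of the 14 windows found for 9 of the 10 genes. The E-box CACGTG, in 7.26% of all windows, was found among these genes only upstream of ELOVL5. FASN was not matched in the promoter table.

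On GRCh38 with GENCODE 29, SCD (ENSG00000099194) lies at chr10:100347124-100364834. ACLY lies at chr17:41866908-41930542, FASN at chr17:82078333-82098332, and ELOVL6 at chr4:110045846-110199199. FADS1 (chr11:61799625-61829318, minus strand) and FADS2 (chr11:61792980-61867354, plus strand) overlap on opposite strands, and FADS2 also overlaps FEN1 on its own strand. SREBF1 overlaps RAI1, and ACSS2 overlaps GGT7, each on the opposite strand. The libraries were stranded, but the strand setting of the counting is not given in the sources used here, so values of these overlapping genes are uncertain.

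Per length, ACLY was the most abundant of the 10 in DMSO, at 139 ± 7.3 FPKM (fragments scaled to transcript length and library size; mean ± SD, n = 9). SCD followed at 78.7 ± 7.7 FPKM. ELOVL5 at 38.8 ± 4.4 FPKM and FASN at 38.1 ± 10 FPKM did not differ beyond their spread. FADS1 stood at 27.6 ± 4.4 FPKM and ACACA at 23.5 ± 1.6 FPKM, again within their spread, and FADS2 at 16.3 ± 2.4 FPKM. SREBF1 at 8.42 ± 1.7 FPKM and ACSS2 at 7.65 ± 1.4 FPKM could not be separated either, and ELOVL6 was lowest at 4.37 ± 1.2 FPKM. The levels thus differed widely within the pathway, and the rarest member still had at least 97 counts in any library.

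FASN, ELOVL6 and SREBF1 moved far more over the 21 groups than the others. The range of group means on the log2 CPM scale was 1.86 for FASN, 1.59 for ELOVL6 and 1.52 for SREBF1, against 0.30 to 0.66 for the other 7. The spread within groups separated these 3. FASN had a within-group SD of 0.43 (log2) and SREBF1 of 0.32, whereas that of ELOVL6 was 0.20. ACLY was the steadiest, with a within-group SD of 0.05, so that small differences in it could be measured.

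ELOVL6, SCD and ACLY were lower in the ibufenac probe arm than in DMSO over the 3 times, and edgeR called no member higher with the values as measured. ELOVL6, which lengthens palmitate to stearate, differed by -0.42 ± 0.10 (log2 fold change ± SE, 95% interval -0.61 to -0.23, adjusted p = 0.00142 by edgeR's quasi-likelihood test with Benjamini-Hochberg adjustment over all tested genes, n = 9 libraries per arm). ACLY differed by -0.24 ± 0.03 (edgeR adjusted p = 8.04e-09), and SCD by -0.18 ± 0.05 (edgeR adjusted p = 0.0121). Of all tested genes, 7.31% were called lower in this comparison and 13.2% in either direction, beside the 3 of 10 members called, all lower. The SCD call was lost without replicate 3 of DMSO at 18 h (-0.14, edgeR adjusted p = 0.0537); those of ELOVL6 and ACLY were kept whichever of the 18 libraries was left out.

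**Figure D1:**
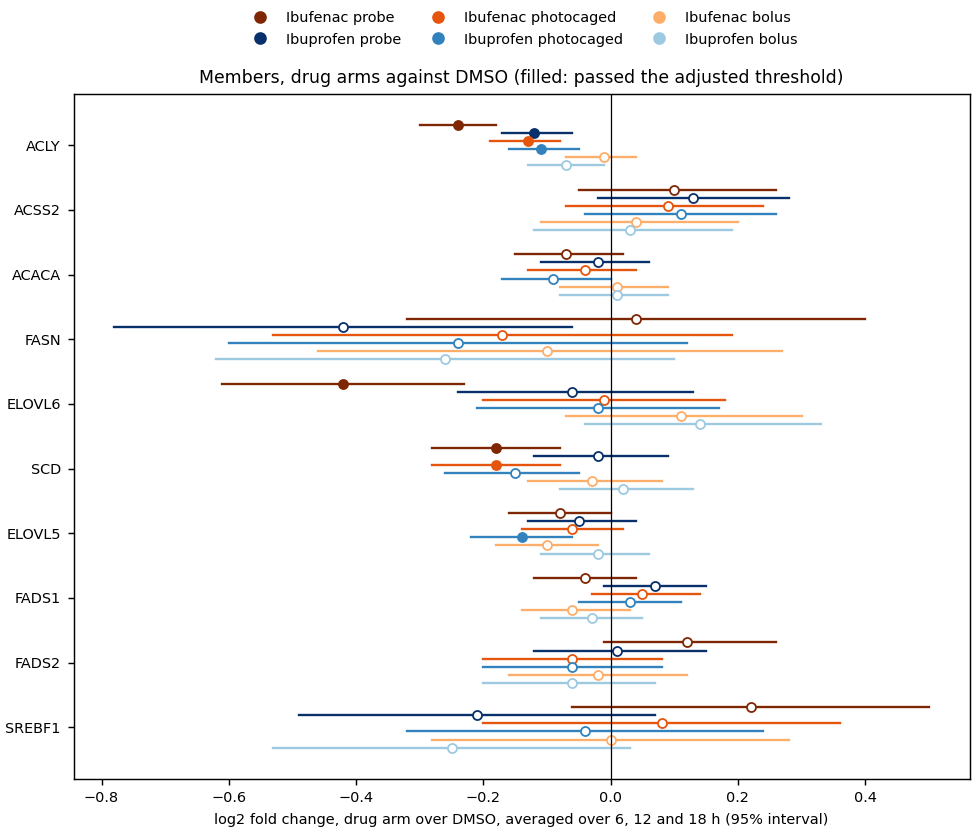
Log2 fold change of each drug arm over DMSO for the 10 genes, averaged over 6, 12 and 18 h (x axis, with 95% intervals; 9 libraries an arm; filled points passed the adjusted threshold). ACLY lies below 0 in every drug arm, with filled points in the 4 probe and photocaged arms. Its interval with the ibuprofen bolus, not called, also lies below 0 (-0.13 to -0.01). ELOVL6 stands clear of 0 only in the ibufenac probe arm, at -0.42.

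At 6 h ELOVL6 had 7.68, 6.46 and 7.78 CPM in the ibufenac probe libraries, against 15.7, 13.4 and 12.8 CPM in DMSO. All 3 libraries of the ibufenac probe lay below every other library of the 21 groups. The difference at 6 h was -0.93 ± 0.17 (log2, 95% interval -1.28 to -0.58, edgeR adjusted p = 0.000112, n = 3 libraries per arm). It was called whichever of the 6 libraries was left out. At 12 h ELOVL6 had 19.7, 15.6 and 11 CPM in the ibufenac probe arm, against 16, 18 and 20.9 CPM in DMSO. At 18 h it had 16.7, 17.5 and 20.8 CPM, against 19.1, 15.8 and 23.3 CPM in DMSO. The groups overlapped at both later times, with differences of -0.25 (edgeR adjusted p = 0.48) and -0.08 (edgeR adjusted p = 0.87).

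SCD, the desaturase that makes oleate from stearate, had 319, 292 and 364 CPM in the ibufenac probe arm at 6 h, against 462, 413 and 422 CPM in DMSO. The groups did not overlap, and the difference was -0.41 ± 0.09 (log2, 95% interval -0.59 to -0.23, edgeR adjusted p = 0.000843, n = 3). At 12 h SCD had 356, 397 and 365 CPM in the ibufenac probe arm, against 412, 452 and 438 CPM in DMSO, a difference of -0.22 that was not called (edgeR adjusted p = 0.168). At 18 h it had 428, 449 and 444 CPM, against 379, 385 and 475 CPM in DMSO, and the groups overlapped. SCD in this arm was thus below DMSO in every library at 6 and 12 h, and not at 18 h.

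ACLY, which supplies cytosolic acetyl-CoA from citrate, was the member that stayed low. It had 490, 501 and 482 CPM in the ibufenac probe arm at 6 h, against 575, 580 and 565 CPM in DMSO. At 12 h it had 455, 424 and 436 CPM, against 542, 528 and 549 CPM in DMSO. At 18 h it had 469, 470 and 459 CPM, against 531, 508 and 561 CPM in DMSO. At none of the 3 times did the groups overlap. The differences were -0.22 (edgeR adjusted p = 0.000936) at 6 h, -0.30 (edgeR adjusted p = 3.92e-05) at 12 h and -0.19 (edgeR adjusted p = 0.0175) at 18 h. The call at 18 h was lost on leaving out any of 4 of the 6 libraries, replicate 3 of DMSO among them.

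FADS2, the first desaturase of the polyunsaturated route, was higher at 6 h in the ibufenac probe arm, with 48.5, 51.2 and 49.9 CPM against 38, 37.7 and 39.1 CPM in DMSO. The difference was 0.38 ± 0.12 (log2, edgeR adjusted p = 0.0239, n = 3), and the groups did not overlap. SREBF1 was also higher there, with 26.8, 28.8 and 29.7 CPM against 17.4, 17.9 and 16 CPM in DMSO (0.74 ± 0.24, edgeR adjusted p = 0.0311). So at 6 h 2 members were called higher and 3 lower, against 4.63% and 8.11% of all tested genes (12.7% in either direction). Either higher call was lost on leaving out most single libraries, 4 of 6 for FADS2 and 5 of 6 for SREBF1. FASN, one of SREBF1's known targets, was not called, at 379, 514 and 487 CPM in the ibufenac probe arm against 203, 355 and 377 CPM in DMSO (0.56, edgeR adjusted p = 0.259). At 12 and 18 h, where 4.51% and 2.69% of all tested genes were called, ACLY was the only member called.

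**Figure D2:**
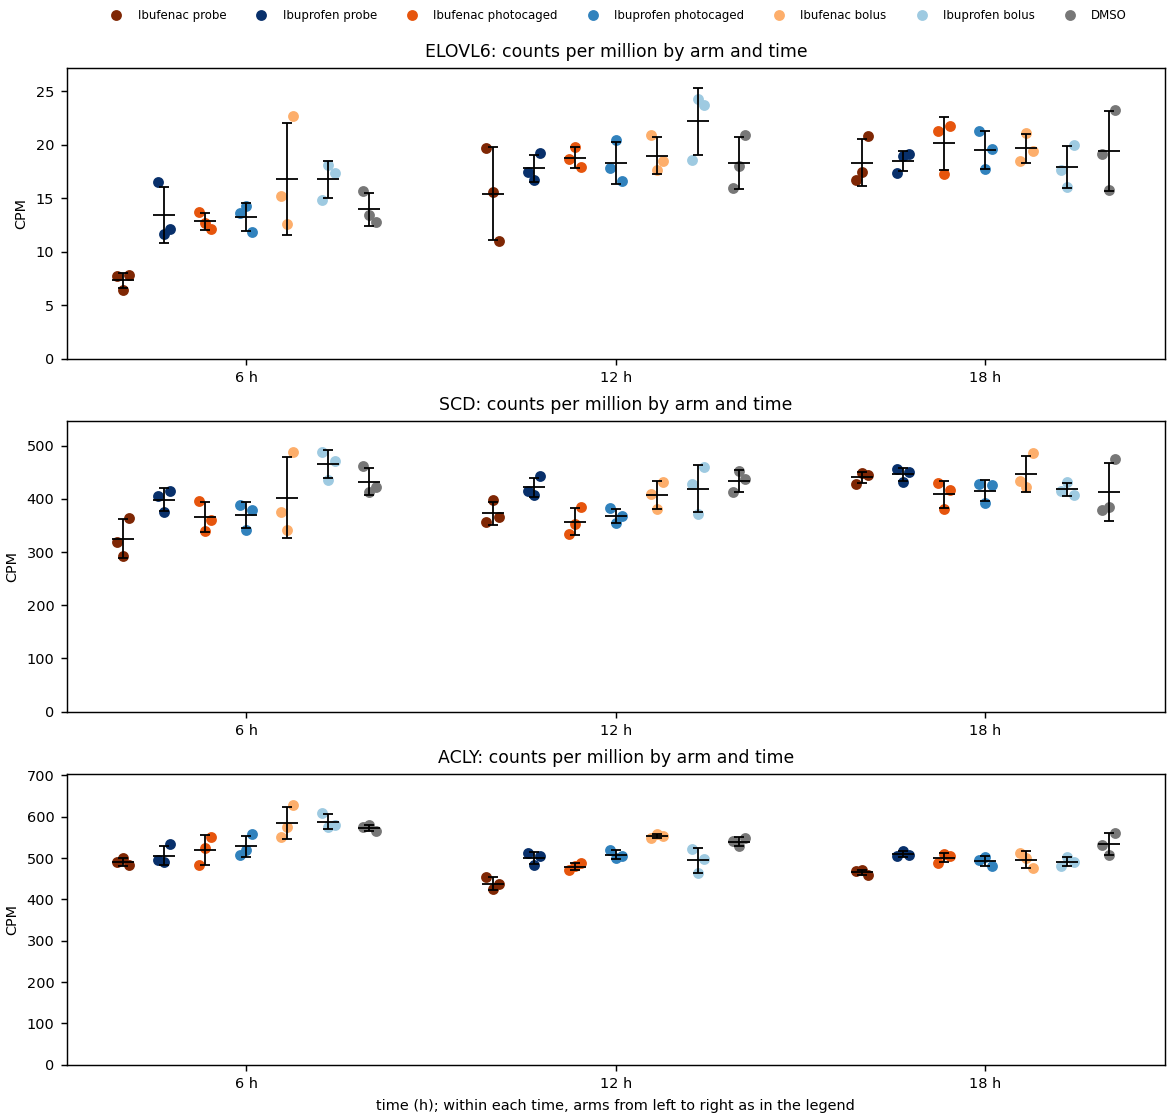
CPM of ELOVL6, SCD and ACLY (y axes) in each of the 63 libraries, by time (x axis) and arm (colours, left to right as in the legend); horizontal lines are group means and bars 1 SD (n = 3). The ibufenac probe libraries at 6 h lie lowest of all for ELOVL6, at 6.46 to 7.78 CPM, and ACLY stays below DMSO in this arm at all 3 times.

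In the ibuprofen probe arm the only member called over the 3 times was ACLY, at -0.12 ± 0.03 (log2, edgeR adjusted p = 0.00524, n = 9 per arm). In this comparison 8.43% of all tested genes were called in either direction and 4.61% were called lower. ELOVL6 differed by -0.06 and SCD by -0.02, neither called. At 6 h ACLY had 495, 490 and 533 CPM in the ibuprofen probe arm, against 575, 580 and 565 CPM in DMSO, without overlap (-0.18, edgeR adjusted p = 0.0132). FASN, the synthase that makes palmitate, had 111, 109 and 163 CPM, against 203, 355 and 377 CPM in DMSO (-1.29 ± 0.32, edgeR adjusted p = 0.00684, n = 3). These 2 calls stand against 11.4% of all tested genes at 6 h. The FASN call was lost without replicate 2 of the ibuprofen probe (edgeR adjusted p = 0.0656), and that of ACLY without any of 3 of the 6 libraries. At 12 and 18 h no member was called by edgeR in this arm; without adjustment 4 and 3 members reached p under 0.05, and DESeq2 called 1 at 12 h. By edgeR 1.97% of all tested genes were called at 12 h and 1.78% at 18 h, and no such share was computed for DESeq2.

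In the ibufenac photocaged arm ACLY was lower by -0.13 ± 0.03 (log2, edgeR adjusted p = 0.00101, n = 9 per arm) and SCD by -0.18 ± 0.05 (edgeR adjusted p = 0.02). All tested genes gave 7.49% calls here, with 3.36% lower. In the ibuprofen photocaged arm ACLY was lower by -0.11 ± 0.03 (edgeR adjusted p = 0.0195). ELOVL5, an elongase of polyunsaturated chains, was lower by -0.14 ± 0.04 (edgeR adjusted p = 0.0402), and 4.28% of all tested genes were called in either direction, with 2.3% lower. SCD had -0.15 in that arm, which missed the threshold (edgeR adjusted p = 0.0788). Both photocaged arms held SCD below every DMSO library at 6 and at 12 h. At 6 h its levels were 396, 340 and 360 CPM with ibufenac and 388, 342 and 379 CPM with ibuprofen, against 462, 413 and 422 CPM in DMSO.

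Several of these photocaged calls rested on single libraries. The SCD call was lost on leaving out any of 5 of the 18 libraries, and the ELOVL5 call any of 12. That of ACLY with ibuprofen was lost without replicate 1 of its own arm at 6 h or replicate 3 of DMSO at 18 h (highest edgeR adjusted p = 0.0521), whereas that of ACLY with ibufenac was kept throughout. Without the 2 libraries set apart, ELOVL5 differed by -0.10 (edgeR adjusted p = 0.16). At single times no member was called by edgeR in either photocaged arm, with 2 to 5 members at an unadjusted p under 0.05; of all tested genes 3.03%, 1.58% and 2.86% were called with ibufenac at 6, 12 and 18 h, and 0.992%, 0.677% and 2.21% with ibuprofen. DESeq2 called 3 members at 12 h with ibufenac and 1 with ibuprofen. The shares above are of edgeR calls. For DESeq2 the share of all tested genes called was not computed, so its counts have no background beside them.

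Neither bolus arm had a called member over the 3 times by edgeR, with 1 member at an unadjusted p under 0.05 in each and none called by DESeq2. The background was as low, at 0.0103% of all tested genes with ibufenac and 0.0258% with ibuprofen. At 18 h the ibufenac bolus had 5.03% of all tested genes called and no member by edgeR, with 4 members at an unadjusted p under 0.05. DESeq2 called 1 member there, and its share of all tested genes was not computed. ACLY differed by -0.01 (95% interval -0.07 to 0.04) with the ibufenac bolus and by -0.07 (-0.13 to -0.01, edgeR adjusted p = 0.372) with the ibuprofen bolus. With the ibuprofen bolus it differed by 0.04 at 6 h, -0.13 at 12 h and -0.12 at 18 h, none called. The ibuprofen probe had -0.11 at 12 h and -0.06 at 18 h, also not called. ELOVL6 differed by 0.11 (-0.07 to 0.30) and by 0.14 (-0.04 to 0.33). SCD had intervals of -0.13 to 0.08 with ibufenac and -0.08 to 0.13 with ibuprofen. Since all 6 comparisons share the same DMSO libraries, their values are given side by side and their likeness is not itself a result.

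ACACA, the acetyl-CoA carboxylase that makes malonyl-CoA, and ACSS2, the acetate-using acetyl-CoA synthetase, were called by edgeR, with the values as measured, in none of the comparisons of a drug arm with DMSO. With GC and length trends removed ACACA was called lower with the ibuprofen photocaged form at 6 h (-0.19, edgeR adjusted p = 0.0414) and in the average (-0.11, edgeR adjusted p = 0.0217). ACACA ran from 134 to 206 CPM over all 63 libraries, and its averaged difference with the ibufenac probe was -0.07 (95% interval -0.15 to 0.02). ACSS2 ran from 14.7 to 25 CPM, with an averaged difference of 0.10 (-0.05 to 0.26). At 18 h ACSS2 lay above every DMSO library in 5 of the 6 drug arms, all set against the same DMSO libraries. The share of all tested genes that do so was not computed. With the ibufenac photocaged form its lowest library had 20.6 CPM, against 20.5 CPM in the highest of DMSO. In the ibufenac probe arm it had 24.9, 23 and 22.4 CPM, against 15, 20.5 and 20.4 CPM in DMSO. That difference of 0.33 was not called (edgeR adjusted p = 0.199).

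The drugs differ in structure by the α-methyl group, and were compared within each form at matched times, in 3 averaged and 9 single-time pairs of groups. In the probe form ELOVL6 was lower with ibufenac than with ibuprofen over the 3 times (-0.36 ± 0.10, log2, 95% interval -0.56 to -0.17, edgeR adjusted p = 0.0229). ACLY was lower as well (-0.12 ± 0.03, -0.18 to -0.07, edgeR adjusted p = 0.00744). Of all tested genes 2.82% were called in this comparison. The ELOVL6 call was lost on leaving out any of 5 of the 18 libraries, with values from -0.44 to -0.30.

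Between the probes most calls came at 6 h, where 7 of the 10 genes were called, 3 higher and 4 lower with ibufenac. Of all tested genes 23.6% were called there, 12.9% higher and 10.7% lower. ELOVL6 had 7.68, 6.46 and 7.78 CPM with the ibufenac probe, against 16.5, 11.7 and 12.1 CPM with the ibuprofen probe (-0.87 ± 0.17, edgeR adjusted p = 0.000194, n = 3). FASN had 379, 514 and 487 CPM with ibufenac, against 111, 109 and 163 CPM with ibuprofen (1.85 ± 0.32, 95% interval 1.20 to 2.50, edgeR adjusted p = 4.18e-05). SREBF1 had 26.8, 28.8 and 29.7 CPM with ibufenac, against 9.04, 9.49 and 12.8 CPM with ibuprofen (1.45 ± 0.25, 0.95 to 1.94, edgeR adjusted p = 3.14e-05). None of these 3 pairs of groups overlapped, and all 3 calls were kept whichever of the 6 libraries was left out.

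The other 4 calls between the probes at 6 h were smaller. FADS2 was higher with ibufenac by 0.43 (edgeR adjusted p = 0.00569). SCD was lower by -0.29 (edgeR adjusted p = 0.0115), ELOVL5 by -0.26 (edgeR adjusted p = 0.00572) and FADS1, the last desaturase of the polyunsaturated route, by -0.23 (edgeR adjusted p = 0.0164). With the trends of GC content and gene length removed from each library, none of the 4 was called (SCD -0.13, ELOVL5 -0.06, FADS1 -0.11, FADS2 0.10). At 12 h, where 1.92% of all tested genes were called, ACLY was the only member to pass (-0.19, edgeR adjusted p = 0.028), at 455, 424 and 436 CPM with ibufenac against 513, 483 and 504 CPM with ibuprofen. That call was lost on leaving out any of 4 of the 6 libraries. At 18 h no member, and 0% of all tested genes, was called by edgeR; 1 member had an unadjusted p under 0.05.

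**Figure D3:**
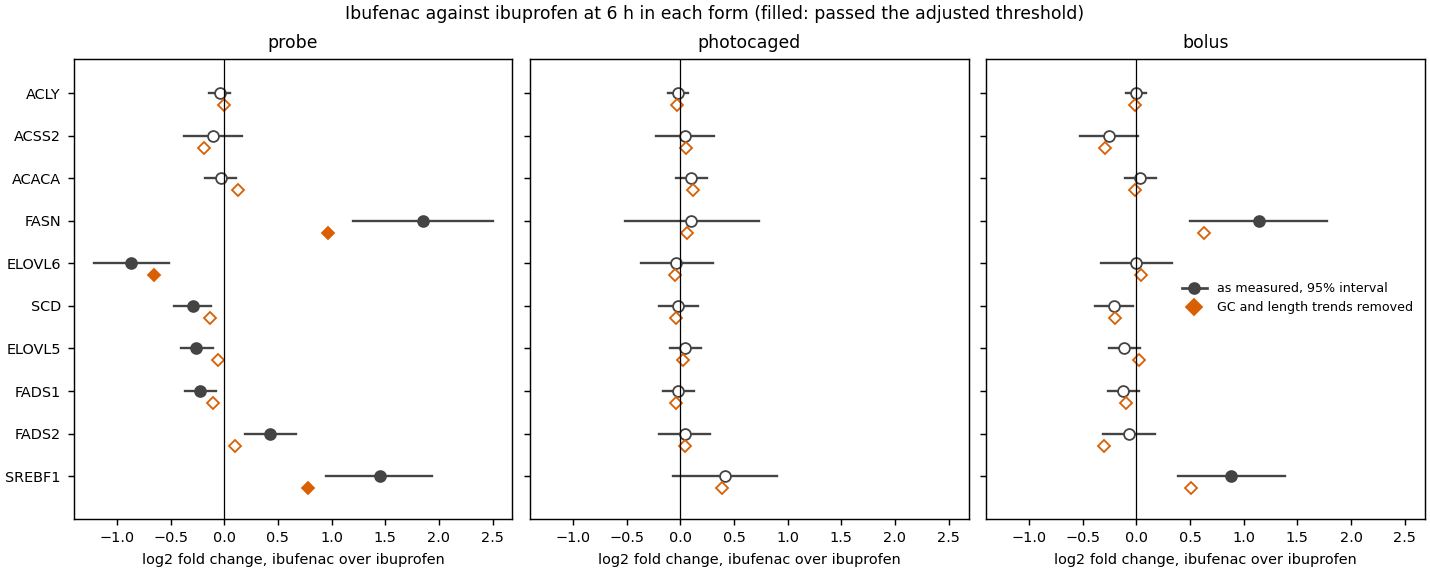
Log2 fold change of ibufenac over ibuprofen at 6 h in each form (x axes) for the 10 genes, as measured with 95% intervals (circles) and with GC and length trends removed per library (diamonds); filled symbols passed the adjusted threshold, 3 libraries a group. FASN, SREBF1 and ELOVL6 are filled both ways in the probe form, and no symbol is filled in the photocaged form.

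In the photocaged form no member was called between the drugs by edgeR, averaged or at any time, with 0 of 10 at an unadjusted p under 0.05 in the average; 0.0362% of all tested genes were called in the average and 0% at each single time. At 6 h the 95% interval of the ELOVL6 difference was -0.37 to 0.30, that of SCD -0.20 to 0.16 and that of ACLY -0.12 to 0.07. The difference of -0.87 in ELOVL6 between the probes lies outside the first of these. For FASN the interval was -0.52 to 0.73 and for SREBF1 -0.07 to 0.90, so sizeable differences in these 2 genes could not be seen at this spread. Between the boluses no member, and 0% of all tested genes, was called in the average by edgeR, with 1 member at an unadjusted p under 0.05. At 6 h FASN (1.14, edgeR adjusted p = 0.0433) and SREBF1 (0.88, edgeR adjusted p = 0.0435) were higher with ibufenac, against 2.3% of all tested genes. Both calls were lost on leaving out any single one of the 6 libraries.

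The forms were also compared within each drug. With ibufenac, ELOVL6 was lower in the probe than in the photocaged form over the 3 times (-0.41, 95% interval -0.60 to -0.22, edgeR adjusted p = 0.00912), against 2.68% of all tested genes called. ACLY was lower by -0.11 (edgeR adjusted p = 0.0281). At 6 h ELOVL6 had 7.68, 6.46 and 7.78 CPM in the probe arm, against 13.7, 12.7 and 12.1 CPM in the photocaged arm (-0.81 ± 0.17, edgeR adjusted p = 0.00196), with 7.38% of all tested genes called. ELOVL5 had 86.6, 86.3 and 93.1 CPM in the probe arm, against 118, 106 and 91.9 CPM in the photocaged arm, which overlapped (-0.25, edgeR adjusted p = 0.024). The ACLY call was lost on leaving out any of 7 of the 18 libraries and that of ELOVL5 any of 4 of the 6. With GC and length trends removed neither ELOVL5 at 6 h (-0.09, edgeR adjusted p = 0.433) nor ACLY in the average (-0.07, edgeR adjusted p = 0.167) was called, and FASN at 6 h was (0.55, edgeR adjusted p = 0.0202). With ibuprofen no member was called between the forms by edgeR; 2 had an unadjusted p under 0.05 in the average, where 0.0982% of all tested genes were called.

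FASN and SREBF1 moved with the base composition of the libraries. FASN has the highest GC content of the 10 genes, 65.3%, followed by SREBF1 at 62.8%, whereas ELOVL6 has 41.2%. The GC balance of a library rests on tested protein-coding genes with a mean of at least 1 CPM, the 10 members left out. It is the mean log2 CPM of the 1255 with at least 61.4% GC minus that of the 1255 with at most 38.4%. The balance was centred over the libraries. It ran from -0.84 to 0.63. At 6 h it averaged 0.42 in the ibufenac probe arm (0.22 to 0.54), -0.70 in the ibuprofen probe arm (-0.84 to -0.44) and 0.08 in DMSO (-0.23 to 0.25). The probe arms did not overlap in it, and it ran in the order of their FASN and SREBF1 levels.

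Over the 63 libraries the correlation of log2 CPM with the GC balance was r = 0.97 (Spearman's rho 0.97) for FASN and r = 0.88 (rho 0.87) for SREBF1. Both had p = 1e-05, the smallest that 100000 permutations can give, and an adjusted p of 3.33e-05 over the 10 relations computed. The permutations shuffled libraries across groups, so libraries of a group were taken as independent although they share arm and time. Within 6, 12 and 18 h the r of FASN was 0.98, 0.92 and 0.99, and within groups 0.95; for SREBF1 it was 0.91, 0.86 and 0.93, and 0.84 within groups. Leaving out the 2 libraries with the most extreme balance gave 0.97 and 0.86. ELOVL5 had r = -0.54 (rho -0.62), FADS2 0.40, SCD -0.37 and ACACA -0.32. By the same permutations their adjusted p was 3.33e-05, 0.00335, 0.00582 and 0.0172. Over all libraries ACSS2 had r = -0.19, ELOVL6 -0.14, FADS1 -0.08 and ACLY 0.02. Within groups these were -0.14, -0.40, -0.45 and 0.30. At 6 h ELOVL6 had r = -0.52 and SCD also -0.52, FADS1 -0.76, FADS2 0.61 and ACLY -0.01. The 10 members are not among the genes of the balance, so it does not contain their own values.

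With GC and length trends removed, the difference between the probes at 6 h was 0.97 (edgeR adjusted p = 2.22e-05) for FASN and 0.78 (edgeR adjusted p = 0.000237) for SREBF1, both smaller than as measured and both still called. FASN in the ibuprofen probe arm against DMSO at 6 h was -0.61 (edgeR adjusted p = 0.0132), and SREBF1 in the ibufenac probe arm 0.58 (edgeR adjusted p = 0.00433). Between the boluses at 6 h the values were 0.63 and 0.51, neither called. ELOVL6 stayed called, at -0.84 (edgeR adjusted p = 5.47e-05) for the ibufenac probe against DMSO at 6 h, where it was -0.93 as measured, and at -0.66 (edgeR adjusted p = 0.00156) between the probes, where it was -0.87 as measured. SCD stayed called in the ibufenac probe arm against DMSO at 6 h (-0.31, edgeR adjusted p = 0.00693), as did ACLY (-0.16, edgeR adjusted p = 0.0113). Removing the trends also added calls against DMSO. Over the 3 times SREBF1 was higher with the ibufenac probe (0.24, edgeR adjusted p = 0.0447), ELOVL5 was lower with the ibufenac photocaged form (-0.13, edgeR adjusted p = 0.0223), and SCD was lower with the ibuprofen photocaged form (-0.18, edgeR adjusted p = 0.0107). At single times the ibufenac photocaged form gained ACLY and SCD at 6 h and ACLY and ELOVL5 at 12 h, and the ibuprofen photocaged form gained ACACA at 6 h and ACLY and ELOVL5 at 18 h, all lower. The part of the GC balance in the differences as measured was not tested beyond these values.

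**Figure D4:**
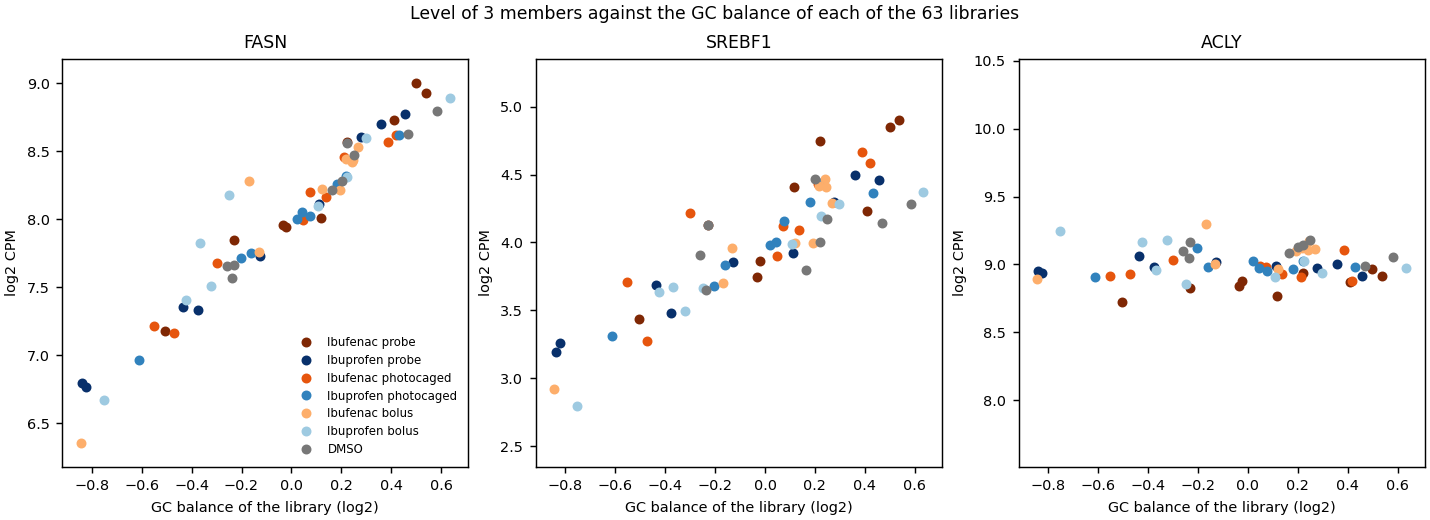
Log2 CPM of FASN, SREBF1 and ACLY (y axes, each spanning the same range) against the GC balance of each of the 63 libraries (x axes, log2), coloured by arm. FASN and SREBF1 climb with the balance (r = 0.97 and 0.88), and ACLY does not over all libraries (r = 0.02, and 0.30 within groups).

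Some members also changed with time in DMSO itself. FADS1, an enzyme of arachidonate synthesis, had 102, 87.6 and 88.7 CPM at 6 h, 112, 114 and 116 CPM at 12 h, and 121, 114 and 146 CPM at 18 h. It was higher than at 6 h by 0.30 at 12 h (log2, edgeR adjusted p = 0.00851) and by 0.45 at 18 h (edgeR adjusted p = 4.08e-06). With GC and length trends removed the call at 12 h was lost (0.20, edgeR adjusted p = 0.0974), and ACLY was called lower at 12 h (-0.17, edgeR adjusted p = 0.0119) and at 18 h (-0.16, edgeR adjusted p = 0.00875). FADS2 was higher at 18 h by 0.55 (edgeR adjusted p = 0.000549), and ELOVL6 by 0.48 (edgeR adjusted p = 0.0342). The log2 CPM of FADS2 as measured was 5.252, 5.239 and 5.294 at 6 h, and 5.671, 5.824 and 5.92 at 18 h. With the trends removed these levels lay closer, at 5.341, 5.205 and 5.285, and at 5.458, 5.628 and 5.839. The GC balance of DMSO averaged 0.08 at 6 h and 0.42 at 18 h. Of all tested genes 3.82% were called at 12 h, with 2.34% higher, and 17.5% at 18 h, with 7.42% higher. The ELOVL6 call was lost without any of 4 of the 6 libraries, and without replicate 3 of DMSO at 18 h its value was 0.33. In no drug arm at any time did edgeR call FADS1 against DMSO with the values as measured; DESeq2 called it higher with the ibuprofen probe at 6 h.

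The difference between arms depended on time for 6 of the 10 genes, by the interaction of treatment and time (12 degrees of freedom, 22.8% of all tested genes called). These were FASN (edgeR adjusted p = 9.78e-05), SREBF1 (0.000263), ELOVL5 (0.00584), ACLY (0.0176), ELOVL6 (0.0201) and SCD (0.0488). The SCD call was lost on leaving out any of 40 of the 63 libraries, and with GC and length trends removed neither SCD (0.292) nor ELOVL5 (0.134) passed. ACACA, not called as measured, passed with the trends removed (edgeR adjusted p = 0.0135) and by DESeq2. From 6 to 18 h the difference of the ibufenac probe from DMSO shifted by 0.84 for ELOVL6 (edgeR adjusted p = 0.0175), by 0.50 for SCD (edgeR adjusted p = 0.0065) and by -1.08 for SREBF1 (edgeR adjusted p = 0.037), in a contrast added after the data were seen. Of all tested genes 7.98% were called in it. No member passed this test by edgeR in the other 5 arms, with 0 to 2 members at an unadjusted p under 0.05. There 0.672% of all tested genes passed with the ibufenac bolus, 0.636% with the ibufenac photocaged form, 0.0568% with the ibuprofen photocaged form, 0.0362% with the ibuprofen probe and 0% with the ibuprofen bolus. With the trends removed the SCD shift was 0.33 and not called (edgeR adjusted p = 0.0621).

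**Figure D5:**
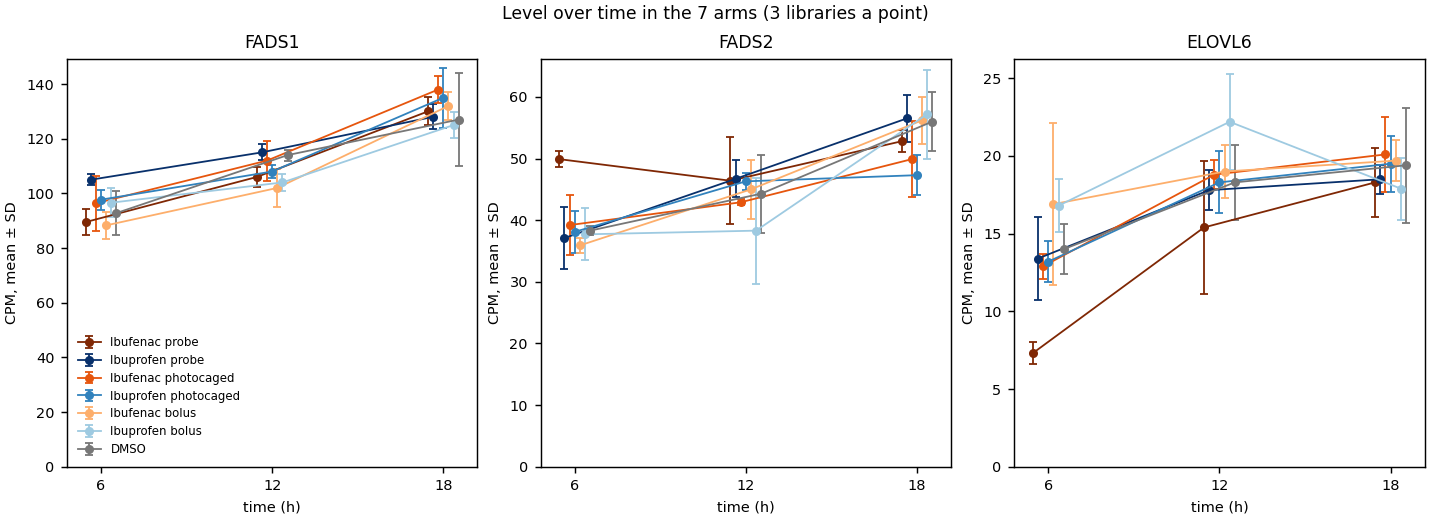
Mean CPM (y axes, ± SD, n = 3) of FADS1, FADS2 and ELOVL6 at 6, 12 and 18 h (x axes) in the 7 arms. FADS1 climbs in all arms, to 121, 114 and 146 CPM in DMSO at 18 h, while ELOVL6 starts lowest in the ibufenac probe arm and meets the others at 18 h.

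Over the 21 group means the members fell into few common patterns, given here as descriptions. FASN and SREBF1 had r = 0.92 with each other, FADS1 had 0.79 with ACSS2 and 0.75 with FADS2, and SCD had 0.64 with ACACA and 0.63 with ELOVL6. SCD and SREBF1 ran opposite, at r = -0.64. These are means of levels, not of differences from DMSO, and the groups differ in GC balance, from -0.7 to 0.42. Over the 63 libraries FASN and SREBF1 followed that balance (r = 0.97 and 0.88). Its part in the correlations given here was not tested. Among the 14495 genes of at least 1 CPM that are no members, those most like SCD included PRPS2 (0.88) and RBFOX2 (0.86). Those most like FASN were INTS1, LRP3 and ULK1 (0.99 each). For ACLY they were UCK2, ATP6V1B2 (0.90 each) and SOD2 (0.88), and for ELOVL6 ZFPM2, RNF165 and TCF4 (0.94 each).

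The neighbouring pathway of cholesterol synthesis and uptake, driven mainly by SREBF2, had 23 tested genes. With the ibufenac probe 10 of these were called lower than DMSO over the 3 times and none higher, where 7.31% of all tested genes were called lower. The median log2 fold change was -0.17, against -0.01 for all tested genes. Among them STARD4, a sterol carrier, differed by -0.36 (edgeR adjusted p = 0.00241). At 6 h 10 were lower and 1 higher (median -0.30; 12.7% of all tested genes called), at 12 h 6 were lower (4.51% called), and at 18 h 2 were higher and none lower (2.69% called). With the ibuprofen probe 5 were lower and none higher at 6 h (median -0.12; 11.4% of all tested genes called), 1 was higher at 12 h (1.97% called), and 2 were higher at 18 h (1.78% called). Over the 3 times none was lower with the ibuprofen probe and 1 higher (8.43% called), HMGCS1 (0.15, edgeR adjusted p = 0.018), which was not called with GC trends removed (0.08). Between the probes 10 of the 23 were lower with ibufenac over the 3 times, with a median of -0.17, where 2.82% of all tested genes were called.

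In the photocaged arms 8 of the 23 cholesterol genes were lower over the 3 times with ibufenac (median -0.13; 3.36% of all tested genes called lower) and 5 with ibuprofen (median -0.12; 2.3% called lower). LSS, lanosterol synthase, differed by -0.31 (edgeR adjusted p = 0.00152) with ibufenac and -0.25 (edgeR adjusted p = 0.0245) with ibuprofen. STARD4 differed by -0.27 (edgeR adjusted p = 0.044) with ibufenac, and DHCR7 by -0.22 (edgeR adjusted p = 0.0364) with ibuprofen; these calls were lost without any of 12 and of 11 of the 18 libraries. Leaving out single libraries gave 3 to 8 lower genes with ibufenac and 1 to 5 with ibuprofen; without the 2 libraries set apart the numbers were 3 and 3. At 6 h 6 were lower with ibufenac (3.03% of all tested genes called) and 3 with ibuprofen (0.992% called), none higher. At 12 h none was lower, and 1 was higher with ibufenac (1.58% called) and none with ibuprofen (0.677% called). At 18 h 1 was lower in each photocaged arm (2.86% and 2.21% called), none higher. These lists were written with earlier results of these data known.

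Other partners of lengthening and desaturation, 14 of 16 tested, had 1 gene called over the 3 times with the ibufenac probe, 1 with the ibuprofen probe, 2 with the ibufenac photocaged form and 1 with the ibuprofen photocaged form. The shares of all tested genes called were 13.2%, 8.43%, 7.49% and 4.28% in these averaged comparisons, in that order, which also applies to the lists that follow. SCD5, the other human stearoyl-CoA desaturase, was lower with the ibufenac probe (-0.63 ± 0.09, edgeR adjusted p = 9.1e-07) and with the ibufenac photocaged form (-0.35 ± 0.09, edgeR adjusted p = 0.00717). In both it was called whichever library was left out. ELOVL4, an elongase of very long chains, was higher in both photocaged arms (0.19 with ibufenac, edgeR adjusted p = 0.0302; 0.24 with ibuprofen, edgeR adjusted p = 0.00893), and neither call held with GC trends removed. TECR, which completes each elongation cycle, was lower with the ibuprofen probe (-0.31, edgeR adjusted p = 0.0319), a call lost without any of 9 of the 18 libraries. The medians of this list were -0.09 with the ibufenac probe and 0 in the other 3 of these arms.

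Of 11 genes that supply acetyl-CoA, malonyl-CoA and NADPH, ME1, the cytosolic malic enzyme that makes NADPH, was higher in both photocaged arms (0.36 with ibufenac, edgeR adjusted p = 0.00138; 0.41 with ibuprofen, edgeR adjusted p = 0.000603). With the probes it had 0.06 and 0.19, not called. With the ibufenac photocaged form CS, citrate synthase, was lower (-0.17, edgeR adjusted p = 0.0138). With the ibufenac probe MLYCD, which breaks down malonyl-CoA, was higher (0.27, edgeR adjusted p = 0.014), as was PGD of the pentose phosphate pathway (0.16, edgeR adjusted p = 0.00529). In all, 2 genes of the list were higher over the 3 times with the ibufenac probe, beside the 13.2% of all tested genes called there, 0 with the ibuprofen probe, 2 with the ibufenac photocaged form and 1 with the ibuprofen photocaged form.

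The list of SREBP regulators, which spans more than SREBP processing and holds SREBF2 itself, had 16 tested genes. Over the 3 times 2 were higher with the ibufenac probe (13.2% of all tested genes called) and 2 with the ibuprofen probe (8.43% called). With the photocaged forms 3 were higher with ibufenac and 2 with ibuprofen. None of the list was lower in these averages. At 6 h 1 was called lower and 1 higher with the ibufenac probe, where 12.7% of all tested genes were called. MBTPS2, the protease that makes the second cut in SREBPs, was among the higher in all 4, at 0.31 (edgeR adjusted p = 0.00196) with the ibufenac probe and 0.23 to 0.24 in the other 3, whose calls were lost without the 2 libraries set apart. RNF139 was higher with the ibufenac probe (0.21, edgeR adjusted p = 0.0174) and the ibufenac photocaged form (0.25, edgeR adjusted p = 0.00613), the second of which was not called with GC trends removed (0.18). INSIG1, which retains SREBPs in the endoplasmic reticulum, was higher with the ibuprofen probe (0.21, edgeR adjusted p = 0.0189), and FBXW7 with the ibuprofen photocaged form (0.19, edgeR adjusted p = 0.0303). Neither INSIG1 nor FBXW7 was called with GC trends removed.

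Of 18 tested genes of acyl-CoA and glycerolipid synthesis, LPIN1, a phosphatidate phosphatase, was higher with the ibufenac probe (0.34 ± 0.05, edgeR adjusted p = 3.13e-07), the ibuprofen probe (0.19, edgeR adjusted p = 0.0071) and the ibufenac photocaged form (0.15, edgeR adjusted p = 0.0301). The last of these was not called with GC trends removed (0.11). GPAT3, which starts glycerolipid synthesis, was higher with the ibufenac photocaged form (0.49 ± 0.13, edgeR adjusted p = 0.0124). Over the 3 times none of the list was lower in these 4 arms. With the ibufenac probe 2 were lower and 1 higher at 6 h (12.7% of all tested genes called), and 1 was higher at 12 h (4.51% called). With the ibuprofen probe 2 were lower and 2 higher at 6 h (11.4% called), and 1 was lower at 12 h (1.97% called). With the ibufenac photocaged form 1 was higher at 6 h (3.03% called). Of the 7 genes of mitochondrial fatty acid synthesis none was called by edgeR over the 3 times in any of the 4, with 0 to 2 at an unadjusted p under 0.05.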

How the data were processed

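Total RNA of 63 libraries was depleted of ribosomal RNA and sequenced with a stranded kit, per the labels' protocols. The authors deposited estimated counts per Ensembl gene without normalization; 22.6% of the values of 1 or more were not whole and were rounded. The deposited FPKM values, which the authors scaled by length and depth, were used only to compare levels between genes. The aligner, the strand used in counting and the genome build: not given in the sources used here. Symbols came from a current gene table for 57754 of 58336 identifiers and from GENCODE 29 for 462; 120 had none.

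In R 4.3.3, edgeR 4.0.16 kept 19352 genes (filterByExpr, minimum count 10), scaled by TMM (factors 0.91 to 1.11) and fitted 21 group means to all 63 libraries by quasi-likelihood, with 42 residual degrees of freedom. All tests are two-sided. Benjamini-Hochberg adjustment ran over all tested genes within each of 47 comparisons, with a threshold of 0.05. It ran likewise within each added contrast of 18 h minus 6 h, which that number leaves out. The words "called", "higher", "lower", "rose" and "fell" refer to that threshold. Contrasts averaged over times weight the 3 times equally. Log2 CPM used a prior count of 2. GC and length trends were fitted per library with splines of 5 degrees of freedom over the 19319 genes (99.8%) with both values and used as offsets. Code was tested on simulated data. No pair of libraries of a group was a duplicate, the most alike differing by a mean chi-square of 5.09 per gene.

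The genes, lists, tests and alternatives were chosen with earlier results of these data known. All 10 genes are named. From 6 lists of neighbouring pathways, up to 2 called genes with the largest change were named in each photocaged and probe arm, and 3 most correlated genes for each member were ranked, of which part is given; some genes that these rules name are not reported here. Alternatives were RLE factors, DESeq2 1.42.0, no low-count filter, a replicate block, the compared arms alone, 6 and 12 h alone, GC and length trends removed, 2 libraries left out together and each library left out in turn, where the trended dispersion of the full fit was kept and the rest refitted. The contrast of 18 h minus 6 h, and all alternatives for the list genes, were added after the data were seen.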

Additional observations from a re-analysis of the deposited data

Results flagged for a closer look

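The difference between arms differed between times for 6 of the 10 genes by the interaction test of edgeR, against 22.8% of all tested genes. The adjusted p was 9.78e-05 for FASN, 0.000263 for SREBF1, 0.00584 for ELOVL5, 0.0176 for ACLY, 0.0201 for ELOVL6 and 0.0488 for SCD. For ELOVL6 the call was lost without replicate 2 of the ibufenac probe at 6 h or its replicate 3 at 18 h (highest adjusted p = 0.09).

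The difference of the ibufenac probe from DMSO was not the same at 18 h as at 6 h for 3 genes, by a test of the difference itself. The change of the difference was 0.84 for ELOVL6, 0.5 for SCD and -1.08 for SREBF1 on the log2 scale (edgeR adjusted p = 0.0175, 0.0065 and 0.037). Leaving out single libraries ended the call of ELOVL6 in 4 cases (0.72 to 1 over all) and that of SREBF1 in 9 of 12 (-1.24 to -0.99). ELOVL6 had 7.68, 6.46 and 7.78 CPM in the ibufenac probe arm at 6 h, against 15.7, 13.4 and 12.8 CPM in DMSO, and the groups overlapped at 18 h. The GC balance of the ibufenac probe libraries averaged 0.42 at 6 h and 0.12 at 18 h, against 0.08 and 0.42 in DMSO, and its part in these changes was not tested beyond the values with trends removed, 0.66 for ELOVL6 (edgeR adjusted p = 0.0325), 0.33 for SCD (edgeR adjusted p = 0.0621) and -0.78 for SREBF1 (edgeR adjusted p = 0.0119).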

How the results depend on the processing

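No result changed its direction while called under the alternatives run. Numbers of the 10 genes called that moved by over 1.5 times follow, and the cause of each was not tested. The share of all tested genes called was not computed under any alternative, single libraries left out included. A change in these numbers thus cannot be told from a change in calls over all genes. With 6 and 12 h alone, 5 were called with the ibufenac probe, 4 between the probes, 1 with the ibuprofen photocaged form, and 1 between the ibufenac forms. DESeq2 called 1 with the ibufenac bolus at 18 h, 3 with the ibufenac and 1 with the ibuprofen photocaged form at 12 h, 2 between the probes at 12 h and 4 in the average, 1 with the ibuprofen probe at 12 h and 4 at 6 h, and 4 between the ibufenac forms at 6 h. With GC and length trends removed, the ibufenac photocaged form had 2 at 6 h and 2 at 12 h, the boluses 0 and the probes 3 at 6 h between the drugs, the ibuprofen photocaged form 1 at 6 h, 2 at 18 h and 4 in the average, and the ibufenac forms 1 in the average. RLE factors gave 1 with the ibufenac photocaged form at 12 h, 0 between the probes at 12 h, 1 with the ibuprofen photocaged form in the average and 1 with the ibuprofen probe at 12 h.

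The replicate block gave 0 for DMSO at 12 h, 1 with the ibufenac bolus at 18 h, 2 with the ibufenac photocaged form and 1 with the ibuprofen probe at 12 h, and 4 between the ibufenac forms at 6 h; of the single-gene results it ended 5 calls and added 11. Same-numbered libraries of a time did not deviate together (median r 0.01, 0 and 0 at 6, 12 and 18 h), so the numbers were not taken as pairs. Without the 2 libraries set apart, the ibufenac photocaged form had 2 at 12 h and 1 in the average, the ibufenac probe 0 at 18 h, the probes 2 at 12 h, the ibuprofen photocaged form 1 at 12 h and 1 in the average, and the ibuprofen probe 1 at 12 h. With the compared arms alone, DMSO had 0 at 12 h, the ibufenac probe 0 at 18 h, the boluses 0 at 6 h, the probes 2 at 12 h and 5 in the average, the ibuprofen photocaged form 0 in the average, the ibuprofen probe 2 at 12 h, 2 at 18 h and 2 in the average, the ibufenac forms 1 at 6 h and 1 in the average, and the ibuprofen forms 1 at 6 h.

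Without a low-count filter, DMSO had 2 at 12 h, the ibufenac bolus 1 at 12 h and 2 at 18 h, the ibufenac photocaged form 1, 3 and 2 at 6, 12 and 18 h, the boluses 1 at 12 h and 2 at 18 h, and the probes 2 at 12 h, 1 at 18 h and 4 in the average. The ibuprofen bolus had 2 at 6 h and 1 in the average, the ibuprofen photocaged form 1, 2 and 1 at 6, 12 and 18 h, the ibuprofen probe 2 at 12 h and 2 at 18 h, the ibufenac forms 4, 1 and 1 at 6, 12 and 18 h, and the ibuprofen forms 1 at 6 h, 1 at 12 h and 1 in the average. In that setting ACLY missed the threshold in the average with the ibufenac photocaged form (edgeR adjusted p = 0.0547) and the ibuprofen probe (0.101), and with the ibufenac probe at 6 h (0.1). Leaving out single libraries gave 0 to 1 for DMSO at 12 h, the ibufenac bolus at 18 h, the ibufenac photocaged form at 6 h, the ibufenac probe at 18 h, the boluses at 12 h and the probes at 12 h, and 0 for the boluses at 6 h. It gave 1 to 2 with the ibufenac photocaged form in the average, 3 to 5 with the ibufenac probe at 6 h, 1 to 4 between the probes in the average, 0 to 2 with the ibuprofen photocaged form in the average, 0 to 3 with the ibuprofen probe at 6 h, and 1 to 5 at 6 h and 1 to 2 in the average between the ibufenac forms. With 3 libraries a group, differences in FASN and SREBF1 under about their 95% intervals could not be seen.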
